A study of Mus musculus with 8 samples.

Results

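MPP A is a class of multipotent progenitors (MPPs) that the authors named from RNA in mouse bone marrow, and its surface was read here with 35 antibodies. Its members were all cells with that name in the authors' RNA-only annotation, 588 of 22602 annotated cells, of which 319 came from young and 269 from old mice. Because RNA alone set the name, no antibody value below placed a cell in the class. The RNA of the same genes may have entered the classes, which was not tested. All cells had been sorted on lineage markers, c-Kit and CD150, and those lacking both the CD117 protein and Kit RNA had been removed. The values of these proteins are therefore not free of selection. Every value is from CITEseq, in which each antibody carries a DNA barcode that is sequenced with the RNA of the cell, and the barcode reads are the antibody-derived tag (ADT) counts.

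The cells were from C57Bl/6 FlkSwitch mice, which carry a Cre driven by Flk2 and a reporter that turns for good from tdTomato to GFP once Cre has acted; young and old mice carried the same alleles. Young mice were 2 to 3 months old and old mice 20 to 24 months old. Bone marrow was enriched for c-Kit, and live, lineage-negative, c-Kit+ cells were sorted by CD150 into a negative and a positive fraction, split into tagged aliquots and run in 8 libraries. The cells in the table fall into 16 cell groups named by a letter A to D and a number, and these names match no library title, so the table was treated as 1 sample and no p-value was computed. Each letter holds young and old cells, so values are given per unit of letter and age, 8 units in all, as a mean and SD over units. The units are not known to be separate animals, and this spread may be technical. Between young and old, age and cell group cannot be told apart.

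Multipotent progenitors arise from hematopoietic stem cells (HSCs), have lost lasting self-renewal and still give rise to many blood lineages. In mouse marrow both stages are looked for among cells that carry CD117 (c-Kit, the receptor for stem cell factor) and Sca-1 (a Ly-6 family protein of the stem cell compartment). CD150 marks HSCs, while CD48, CD27, CD34 and CD135 are typically gained on the way from HSC to MPP. CD135 is Flk2 itself, the receptor for Flt3 ligand, and its promoter drives the Cre of these mice.

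The median MPP A cell had 2095.5 ADT counts, 13844 RNA UMIs and 3916.5 genes detected, and single cells ran from 256 to 7591 ADT counts. Old MPP A had fewer ADT counts than young MPP A, with medians of 1873 and 2315. HSC had 1173, MPP B 2349, MPP C 1331 and MPP D 2513. Of the 588 cells, 564 lay in cell groups numbered 1 or 3 and 24 in those numbered 2 or 4, and 3 had a barcode that also occurred in another cell group. MPP A made up 2.60% of annotated cells (exact 95% interval 2.40 to 2.82%), 2.57% in young and 2.64% in old marrow. The letters differed in direction. From young to old the share went from 2.02% to 2.37% in A and 1.62% to 2.88% in B. In C it went from 3.75% to 2.70% and in D from 3.46% to 2.62%. Among HSC and MPP classes alone it was 40.2% in young and 24.8% in old cells, and lower in old cells of every letter. Intervals on shares cover counting error only, and the class shares also depend on how the sorted fractions were pooled.

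The value used is the authors' normalized score, in which a count is divided by the geometric mean of the counts of its cell and the logarithm of 1 plus the value is taken 2 times. It is not a log2 value, so classes are compared as differences in score. Antibodies bind with different strength, so a protein is compared between cells and not with another protein. For the share of all ADT counts that fell on 1 antibody, a fold is given, and such shares add to a whole, so a high share of 1 protein lowers those of the others.

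The 4 proteins chosen as markers of the class did not behave alike. Sca-1 was high in MPP A, with a mean score of 0.979 over all cells, which was second among 21 classes and below HSC at 1.19. In young MPP A the Sca-1 score was 0.950 in letter A, 1.03 in letter B, 0.977 in letter C and 1.03 in letter D, and in old MPP A it was 1.01, 1.02, 0.822 and 0.898. Young and old units overlapped. CD27, a TNF receptor family member, averaged 1.41 over all cells and ranked sixth, with unit means from 1.36 to 1.45. CD48, a SLAM family adhesion protein, averaged 1.46 and ranked only 13th, since most progenitor classes carried more of it. CD117 averaged 1.40 and ranked 17th of the 21 classes, although 587 of 588 cells exceeded the score of 1 that the methods used as the limit for CD117. The genes of these proteins are Ly6a on chromosome 15 (74994877 to 74998031), Kit on chromosome 5 (75574987 to 75656722), Cd48 on chromosome 1 (171681245 to 171705258) and Cd27 on chromosome 6 (125232620 to 125237136), in mm10.

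CD86, a costimulatory ligand of T cells best known from antigen-presenting cells, had the highest class mean in MPP A among both young and old cells, by a small margin. Young MPP A averaged 0.846, with HSC next at 0.823 (17 cells), and old MPP A averaged 0.632, with the class named Lymphoid A next at 0.623. Within the 8 units CD86 exceeded Lymphoid A by 0.0325 ± 0.0374 and in 7 of 8 units, so this order is within the spread between units. CD135 ranked 2 of 20 classes in young cells (0.273) and 3 of 21 in old cells (0.191), and CD34, a sialomucin of progenitors, ranked 5 in young (0.698) and 6 in old cells (0.503). CD150 was low, with a mean of 0.103 and unit means from 0.0867 to 0.130. After every cell was thinned to 300 ADT counts, 16.5% of 587 MPP A cells had a CD150 count, against 86.8% of HSC and 21.9% of late erythroid cells (the class Ery C), so the CD150 signal of MPP A was no higher than in that class. The same thinning left CD86 in 86.9% of MPP A and 12.1% of Ery C cells, CD34 in 76.7% and 14.1%, and CD135 in 30.7% and 10.0%. Without thinning, median depths were 2095.5 ADT counts in MPP A and 1731 in Ery C.

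Antibodies against mature lineages varied in level. CD3, CD4 and CD8a (T cells), NK-1.1 (natural killer cells), TER-119 (erythroid cells) and CD11b (myeloid cells) had mean unit scores from 0.0343 to 0.0897. B220, a B cell isoform of CD45, reached 0.284, Gr1 of granulocytes 0.674 and CD79b, a part of the B cell receptor, 0.973. B220, Gr1 and CD79b were higher in Ery C, at 0.415, 0.772 and 1.33. The cells had been stained with other antibodies against several of these lineage epitopes, CD117 and CD150 before the barcoded antibodies were added, and the effect of this on the counts was not tested.

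**Figure D1:**
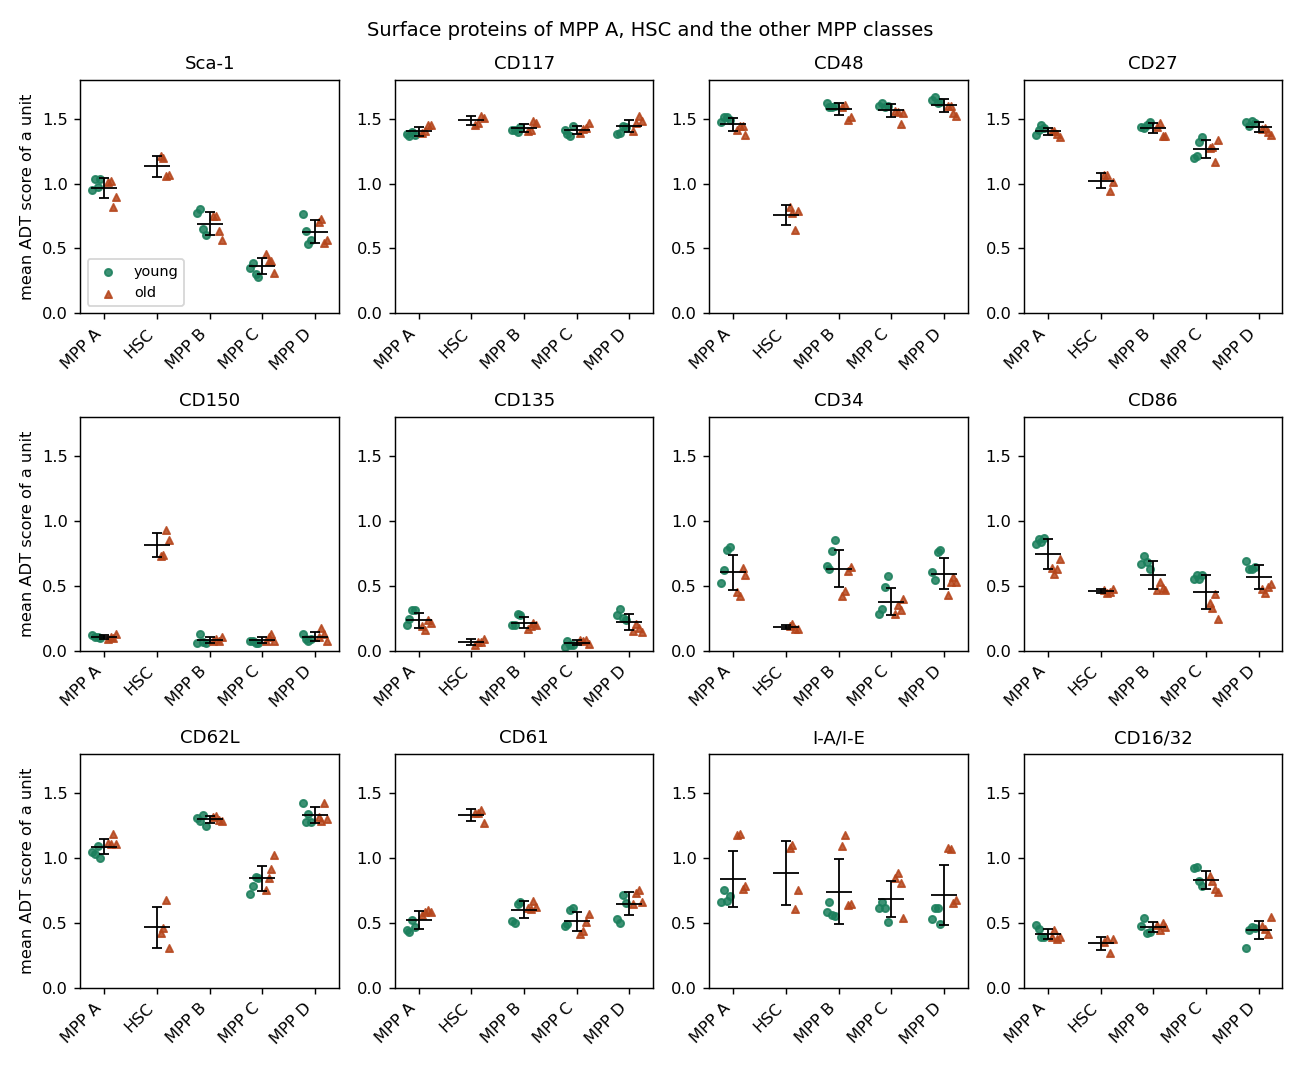
Mean ADT score (vertical axis, no unit) of 12 surface proteins in MPP A, HSC and the other MPP classes, with a circle for each young unit, a triangle for each old unit and the mean with SD over units. HSC is shown for the 4 old units only, since young HSC were under 10 cells per letter; MPP A lies between HSC and the other MPP classes for Sca-1 and above MPP B, MPP C and MPP D for CD86.

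MPP A against HSC asks how the progenitor surface differs from that of the stem cell. Old MPP A carried far more CD62L and CD48 and far less CD61 than old HSC. CD150 was far lower as well, but the cells had been sorted on CD150. In A3, the only cell group with 10 or more of each class, CD150 differed by only -0.0916. The contrast was taken in the 4 old units, which held 12 to 77 HSC each. Over all young cells, with 17 HSC, CD86 was 0.846 in MPP A and 0.823 in HSC, and Sca-1 1.00 and 1.33. None of the 20 young classes exceeded 0.955 for CD61, while HSC stood at 1.34 over all old cells. The sizes of the differences below are thus those of old cells. A protein is called here when its difference had the same sign in all units and its mean exceeded its SD. Of 35 proteins 21 were called, 60.0% of those measured, 11 of them higher and 10 lower in MPP A. On log2 counts per 1000 ADT counts the split was 8 higher and 18 lower, with the median protein shifted by -0.18.

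Among the 9 stem and progenitor proteins, 4 were higher and 5 lower in MPP A than in HSC. CD48 scored 0.803 higher in letter C, 0.664 higher in letter B, 0.592 in letter A and 0.583 in letter D, a mean difference of 0.661 ± 0.102 (SD, n = 4 units). As a share of ADT counts, CD48 was 8.10 times as high in MPP A. CD27 differed by 0.366 ± 0.0506, CD34 by 0.343 ± 0.121 and CD135 by 0.131 ± 0.0331, each higher in all 4 units. CD150, a SLAM family receptor, differed by -0.708 ± 0.0888, with an average of 0.104 in old MPP A and 0.811 in old HSC. CD38, an ectoenzyme that cleaves NAD, differed by -0.388 ± 0.0297, and Sca-1 by -0.195 ± 0.0280. CD117 differed by only -0.0630 ± 0.00995, and CD105 (endoglin, a co-receptor of the TGF-beta family) by -0.0948 ± 0.0876. The CD105 call was lost without letter C (-0.0707 ± 0.0896) or letter D (-0.0690 ± 0.0868), with medians over cells (-0.0790 ± 0.104) and without the shallowest and deepest 10% of cells (-0.103 ± 0.104), and in the 2 units with at least 20 HSC the difference was -0.0201. After thinning CD117 differed by -0.134 and CD135 by 0.0728, in the same directions. The MPP A proteins gained and lost against HSC thus came in both directions within 1 list, with a list median of -0.0630 against 0.0121 over all 35.

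Of 5 megakaryocyte and platelet proteins, 3 were called lower in MPP A than in HSC and none higher. Over all 35 proteins 21 were called (60.0%), so this list was not called more often than the whole panel. CD61, the integrin beta chain of platelets, gave the largest difference of all, at -0.780 in letter A, -0.761 in letter B, -0.765 in letter C and -0.685 in letter D. It took 0.798%, 0.764%, 0.711% and 0.777% of ADT counts in old MPP A of letters A to D, and 13.2% in old HSC on average. CD41, its partner integrin chain, differed by -0.306 ± 0.0693 and the tetraspanin CD9 by -0.154 ± 0.0296. CD62P (P-selectin) and CD63 were not called.

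CD62L (L-selectin, a homing receptor of lymphocytes) was higher in MPP A by 0.694 in letter A, 0.647 in letter B, 0.511 in letter C and 0.806 in letter D. It averaged 1.13 in old MPP A and 0.464 in old HSC, and the ranges did not overlap. CD44, a hyaluronan receptor, was higher by 0.180 ± 0.0406. Of 8 myeloid and dendritic proteins, 3 were higher and CD11b was lower. The 3 were CD86 (0.181 ± 0.0361), the MHC class II protein I-A/I-E (0.0942 ± 0.0494) and the Fc receptors CD16/32 (0.0569 ± 0.0437). As a share of ADT counts, I-A/I-E was from 0.973 to 1.31 times as high as in HSC over these units. After thinning of cells of both ages, I-A/I-E had a count in 86.7% of MPP A and 96.3% of HSC. CD16/32 lost its call without letter B (0.0520 ± 0.0521) and after thinning (0.0123 ± 0.0242). It turned to the other sign on log2 counts, at -0.09. The interleukin-7 receptor CD127 was not called, with a difference of 0.0267 ± 0.0430. B220 was higher by 0.101 ± 0.0171 and NK-1.1 by 0.0139 ± 0.00833, and the other lymphoid proteins were not called. After thinning of all cells, NK-1.1 had a count in 6.64% of MPP A and 6.88% of HSC. B220 had a count in 44.8% of MPP A, 35.4% of HSC and 43.0% of Ery C. NK-1.1 was thus no more frequent in MPP A than in HSC, and B220 was near its level in Ery C.

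HSC lay mostly in cell groups numbered 4 and MPP A in those numbered 1 and 3, so class and cell group are mixed in these differences. Only cell group A3 had 10 or more of each, with 71 MPP A and 13 HSC. There CD62L still differed by 0.703, CD61 by -0.566, CD48 by 0.482 and Sca-1 by -0.248. Other differences were smaller there, at -0.0916 for CD150, 0.0960 for CD27, 0.177 for CD34, 0.0860 for CD44, 0.0523 for CD86, 0.0525 for B220 and -0.0778 for CD54. CD117 (0.0320) and CD16/32 (-0.00578) had the other sign, while CD105 (-0.245), CD9 (-0.284) and CD11b (-0.0998) differed more. Whether sort fraction or library set the remaining size of the CD150 difference was not tested.

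**Figure D2:**
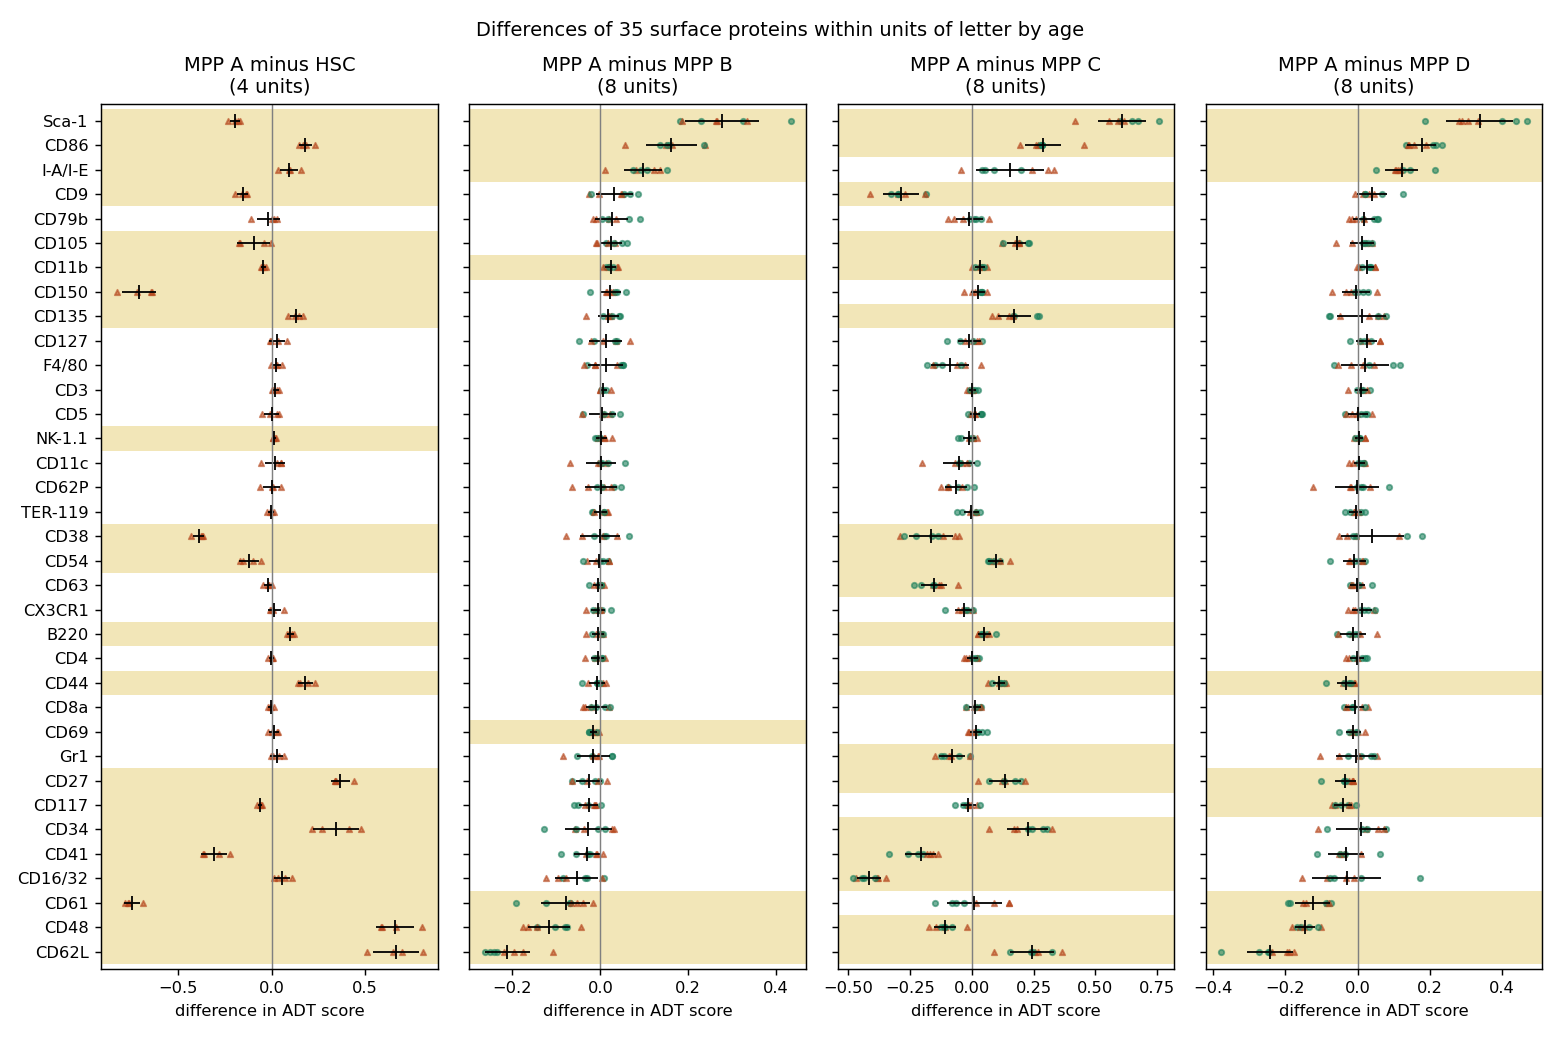
Difference in mean ADT score, MPP A minus the class named above each panel (horizontal axis, no unit), for 35 proteins, with a circle for each young unit, a triangle for each old unit, a black bar for the mean with SD, and shading where the protein was called. Scales differ between panels; Sca-1 is lower than in HSC and higher than in MPP B, MPP C and MPP D in every unit.

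The other MPP classes were compared with MPP A in all 8 units. Sca-1, CD86 and, in all but 1 unit, I-A/I-E were higher in MPP A than in each of the 3 classes, while CD48 was lower than in each. The share of Sca-1 among ADT counts was 2.29 times that of MPP B, 3.67 times that of MPP D and 11.8 times that of MPP C. Of the 3, the class with the nearest surface was MPP B and the one farthest away was MPP C.

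Against MPP B, 8 of 35 proteins were called (22.9%), 4 in each direction. On log2 counts the split was 6 higher and 2 lower, and after thinning it was 5 and 2. Sca-1 was higher by 0.277 ± 0.0848 (SD, n = 8 units), with single units from 0.180 to 0.433. CD86 was higher by 0.161 ± 0.0580, I-A/I-E by 0.0968 ± 0.0441 and CD11b by 0.0232 ± 0.0116. CD62L differed by -0.211 ± 0.0511, CD48 by -0.117 ± 0.0471, CD61 by -0.0789 ± 0.0552 and CD69, an early activation antigen, by -0.0161 ± 0.00842. CD117 (-0.0263 ± 0.0214), CD27 (-0.0255 ± 0.0297), CD34 (-0.0272 ± 0.0538), CD135 (0.0179 ± 0.0238) and CD150 (0.0230 ± 0.0235) were not called. None of the 8 lymphoid proteins was called. The CD61 call was lost after thinning (-0.0502 ± 0.0515), and with medians over cells CD48 differed by -0.0757. Mean Sca-1, like CD86, CD62L and CD48, thus differed between MPP A and MPP B where CD117, CD34, CD135 and CD27 gave no call. The Sca-1 difference was smaller than the SD over single MPP A cells within units, 0.368, so it does not separate single cells.

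Against MPP D, 9 of 35 were called (25.7%), 3 higher and 6 lower; on log2 counts per 1000 the split was 8 and 2 with the median protein shifted by 0.13, after centring on the lineage antibodies 3 and 3, and after thinning 3 and 2. Sca-1 was higher by 0.338 ± 0.0934, CD86 by 0.177 ± 0.0396 and I-A/I-E by 0.122 ± 0.0463. CD62L differed by -0.243 ± 0.0640, CD48 by -0.145 ± 0.0282 and CD61 by -0.125 ± 0.0496. The small differences of CD117 (-0.0397), CD27 (-0.0339) and CD44 (-0.0309) turned to the other sign on log2 counts, at 0.04, 0.06 and 0.04. After thinning these 3 calls and that of CD61 (-0.0692 ± 0.0701) were lost. The same 6 proteins, Sca-1, CD86, I-A/I-E, CD62L, CD48 and CD61, were thus called in the same direction against MPP B and MPP D, and both comparisons used the same MPP A cells.

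Against MPP C, 18 of 35 were called (51.4%), 11 higher and 7 lower, with 7 and 10 on log2 counts and 7 and 9 after thinning. Sca-1 was higher by 0.606 ± 0.0975, CD86 by 0.289 ± 0.0734, CD62L by 0.244 ± 0.0878, CD34 by 0.226 ± 0.0829, CD105 by 0.181 ± 0.0401, CD135 by 0.172 ± 0.0660, CD27 by 0.134 ± 0.0645 and CD44 by 0.111 ± 0.0249. CD16/32 was lower in every unit, at -0.415 ± 0.0477, with a mean of 0.414 in MPP A and 0.829 in MPP C. CD9 differed by -0.284 ± 0.0733, CD41 by -0.205 ± 0.0631, CD38 by -0.165 ± 0.0899, the granule tetraspanin CD63 by -0.152 ± 0.0540 and CD48 by -0.108 ± 0.0456. After thinning, the differences of CD135 (0.0849), CD34 (0.142) and CD105 (0.109) were smaller and that of CD48 (-0.168) larger, and with medians over cells CD48 differed by -0.0503. Of the 5 megakaryocyte and platelet proteins, 3 were lower and none higher, beside 51.4% called over all 35 proteins. CD61 was not called against MPP C, since it was lower in the 4 young units (mean -0.0818) and higher in the 4 old units (mean 0.103). MPP C differed from MPP A in depth, with a median of 1331 ADT counts.

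The distance between mean profiles, the root of the summed squared score differences over 35 proteins within a unit, put Lymphoid A nearest to MPP A, at 0.280 ± 0.0524 (SD, n = 8 units). MPP B followed at 0.469 ± 0.0839 and MPP D at 0.574 ± 0.0792, while MPP C lay at 1.08 ± 0.0746 and HSC at 1.64 ± 0.104 over 4 units. The highest Lymphoid A unit, at 0.373, exceeded the lowest MPP B unit, at 0.357. Lymphoid A shared the high Sca-1 of MPP A, with a mean of 0.916 over all cells against 0.979. It had more CD62L (1.22 against 1.08) and CD34 (0.716 against 0.609), and CD135 was 0.246 against 0.236. Distances also grow with counting noise in small classes, and no test was made of their order.

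Score limits from the methods, set there for myeloid and megakaryocyte progenitors, place these RNA-named cells as on a flow cytometry plot. A window of Sca-1 at or above 0.71 and CD117 above 1 held 438 of 588 MPP A cells, 74.5% (exact 95% interval 70.8 to 78.0%). The share was 74.0% in young and 75.1% in old cells, and the 8 units ran from 61.2% to 82.8%. The window held 94.2% of HSC, 44.0% of MPP B, 37.4% of MPP D and 3.54% of MPP C. Turned around, MPP A made up 18.1% of the 2426 annotated cells in the window, the most of any class, and Ery C came next with 12.0%. Almost all MPP A cells outside the window were there for low Sca-1, since 587 passed the CD117 limit. The window shares depend on ADT depth, and after thinning to 300 counts 49.1% of MPP A remained inside.

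With limits of 0.45 for CD150 and 1.1 for CD48, 526 MPP A cells (89.5%, interval 86.7 to 91.8%) were CD150-CD48+ and 48 (8.16%, interval 6.08 to 10.7%) were CD150-CD48-. Only 14 cells were above the CD150 limit, 10 with and 4 without CD48. CD150-CD48- cells were 0.755% of MPP D, 7 of 636 MPP B cells and 0 of 198 MPP C cells, a count of 0 whose upper exact bound was 1.85%. Of young MPP A, 5.02% (16 cells) were CD150-CD48-, and of old MPP A 11.9% (32 cells). By letter the old share exceeded the young share in all 4, at 15.3% against 4.17% in A, 12.4% against 3.45% in B, 8.16% against 3.49% in C and 10.2% against 7.77% in D. Their exact intervals overlapped within every letter. The share depends on ADT depth, since thinning all MPP A cells to 300 counts raised it to 15.8%. Old MPP A had fewer ADT counts than young MPP A, with medians of 1873 and 2315. The shares by age were not recomputed at equal depth.

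**Figure D3:**
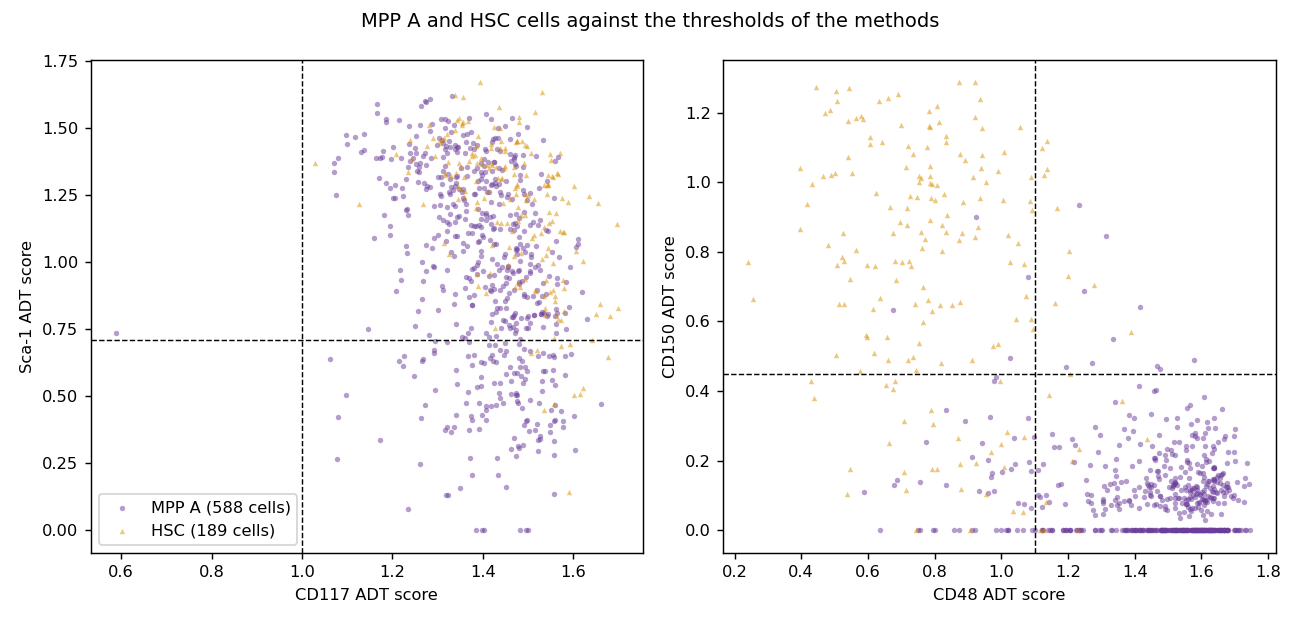
ADT scores of single cells, MPP A as circles and HSC as triangles, for Sca-1 against CD117 (left) and CD150 against CD48 (right), with dashed lines at the limits of the methods (0.71 for Sca-1, 1 for CD117, 0.45 for CD150 and 1.1 for CD48). MPP A spreads widely along Sca-1 at a narrow range of CD117, and 526 of its 588 cells lie in the lower right quadrant of the right panel.

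Single MPP A cells spread widely around these means. Within units the SD over cells was 0.368 for Sca-1 and 0.398 for CD62L. The SD over units was 0.0758 and 0.0580, but each unit value is a mean over many cells, which makes this SD smaller by itself. From the 5th to the 95th percentile, Sca-1 ran from 0.342 to 1.48 with a median of 1.02, and CD62L from 0.340 to 1.59 with a median of 1.16. CD48 had a median of 1.53 and a 5th percentile of 0.983. CD135 had a median of 0.190 and a 95th percentile of 0.653.

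Some proteins varied together across cells. Spearman's rank correlation, taken over 588 cells after each unit was centred on its mean, is given as a description, since cells share a unit and all proteins of a cell share 1 normalization. Sca-1 went with CD86 (0.60, from 0.46 to 0.74 within units), I-A/I-E (0.44) and CD135 (0.33). It went against CD48 (-0.47, from -0.66 to -0.33 within units), CD62L (-0.44) and CD117 (-0.36). CD48 and CD62L went together (0.62). Of the 8 proteins called against MPP B, Sca-1, CD86, I-A/I-E and CD11b thus went together inside MPP A and against CD48 and CD62L, but CD61 went against CD48 (-0.17) and CD62L (-0.13), and CD69 was near 0 with Sca-1 (0.05), CD48 (-0.02) and CD62L (0.02). With every cell thinned to 300 counts, the correlation was 0.50 for Sca-1 with CD86, -0.56 for Sca-1 with CD48, -0.48 for Sca-1 with CD62L and 0.45 for CD48 with CD62L. The correlation with the ADT depth of the cell was 0.09 for Sca-1, 0.20 for CD86, 0.34 for CD48 and 0.31 for CD62L.

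Another set was CD27 with CD44 (0.73), and another CD38 with CD16/32 (0.69) and the macrophage protein F4/80 (0.66), with CD27 against CD38 at -0.59. After thinning, CD27 with CD44 was 0.41 and CD27 with CD38 -0.45. Of the 5 megakaryocyte and platelet proteins, CD41 went with CD9 (0.46) and CD61 (0.39), and CD9 with CD61 (0.23). CD62P and CD63 were near 0 with CD41 (0.07 and 0.08) and with CD61 (-0.04 and 0.04). CD117, outside this list, went with CD41 (0.38), CD9 (0.35) and CD61 (0.26). These pairs were not recomputed after thinning.

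**Figure D4:**
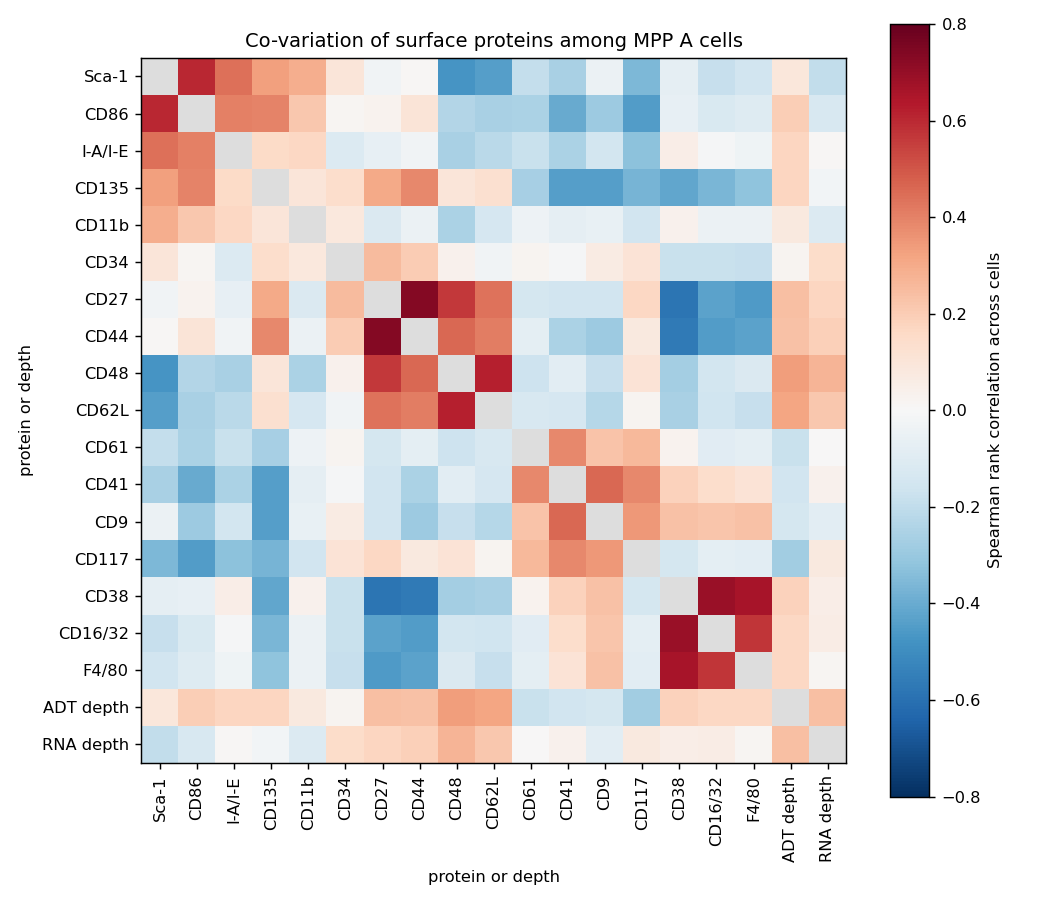
Spearman's rank correlation (colour scale from -0.8 to 0.8) between ADT scores of 17 proteins, and with ADT and RNA depth, over 588 MPP A cells centred by unit. The red block of Sca-1, CD86 and I-A/I-E is set against the red pair of CD48 and CD62L by blue cells, with Sca-1 and CD48 at -0.47.

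The Egfp call of the authors reads the FlkSwitch reporter in RNA, which turns on once a cell or its ancestor has expressed Flk2. Of MPP A cells, 561 of 588 (95.4%, exact 95% interval 93.4 to 97.0%) were called positive. The share was 98.1% in young cells (313 of 319) and 92.2% in old cells (248 of 269). Old negative cells were 5 in letter A, 5 in letter B, 5 in letter C and 6 in letter D, and young negative cells were 3 in A, 3 in C and none in B or D, where counts of 0 allowed at most 6.16% and 3.52% of cells by the exact interval. Of old HSC, 23.3% were positive, and old MPP B, MPP C and MPP D reached 96.5%, 96.0% and 93.7%. Young HSC were positive in 12 of 17 cells (70.6%, interval 44.0 to 89.7%), so the low share of old HSC did not hold for young HSC. Old negative MPP A cells had fewer ADT counts than old positive ones, with medians of 1380 and 1938.5, and also fewer RNA UMIs, 13747 and 15047.5. The part of depth in the call was not tested.

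Old against young MPP A was taken within the 4 letters. CD86, CD38, CD34 and F4/80 fell in old cells, and CD61, CD11c, CD62L and I-A/I-E rose. Of 35 proteins 18 were called (51.4%), 8 higher and 10 lower in old cells. In the other MPP classes 14 proteins (40.0%, MPP B), 15 (42.9%, MPP C) and 17 (48.6%, MPP D) were called.

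CD86 gave the largest fall. Young units scored 0.824, 0.861, 0.834 and 0.864 in letters A to D, and old units 0.633, 0.586, 0.631 and 0.702. Every old unit lay below every young unit, and the mean difference was -0.208 ± 0.0482 (SD, n = 4 letters). As a share of ADT counts old cells had 0.637 ± 0.121 times the young value. CD86 was also lower in old cells in all 15 other classes with enough cells, with a median difference of -0.176 and a range from -0.221 to -0.00321.

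CD38 averaged 0.693 in young and 0.496 in old MPP A, a difference of -0.196 ± 0.0505, and the 15 other classes were lower as well, with a median of -0.168. Among stem and progenitor proteins CD34 (-0.157 ± 0.0682), CD48 (-0.0797 ± 0.0271) and CD135 (-0.0680 ± 0.0377) fell and CD117 rose by 0.0453 ± 0.0305. CD48 stood at 1.47, 1.51, 1.51 and 1.49 in young letters A to D and at 1.41, 1.44, 1.44 and 1.37 in old ones, with no overlap. CD48 was lower in old cells in all 15 other classes too, and CD135 in 7 of them. The CD135 fall was not seen at equal depth, with a difference of -0.00901 ± 0.0264 after thinning, and that of CD34 was -0.104 after thinning. F4/80 fell by 0.147 ± 0.0347, CD79b by 0.116 ± 0.0650, CX3CR1, a chemokine receptor of monocytes, by 0.0477 ± 0.0236, CD63 by 0.0388 ± 0.0166 and CD4 by 0.0150 ± 0.0105. Of the 15 other classes, old cells were lower in 15 for CX3CR1 and CD63 and in 13 for F4/80. They were lower in 12 for CD34, 11 for CD79b and 4 for CD4.

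I-A/I-E, the peptide-presenting MHC class II protein, gave the largest rise, but the letters differed. Young units scored 0.658, 0.756, 0.664 and 0.707 in letters A to D and old units 1.18, 1.19, 0.760 and 0.783. The difference was 0.518 in A and 0.431 in B but 0.0967 in C and 0.0760 in D, a mean of 0.281 ± 0.227, and without letter B the mean of 0.230 no longer exceeded its SD of 0.250. Old cells took 6.02 and 5.61 times the young share of ADT counts in A and B, and 1.97 and 1.73 times in C and D. All 15 other classes were higher in old cells, and in MPP B the differences by letter were 0.512, 0.514, 0.0800 and 0.0919. In MPP D they were 0.540, 0.458, 0.0395 and 0.180, and in MPP C 0.228, 0.216, 0.194 and 0.0315. Letters A and B thus stood apart from C and D in MPP A, MPP B and MPP D. In MPP C letter C lay near A and B. What separates the letters is not given in the sources used here.

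CD61 rose from 0.441, 0.425, 0.520 and 0.465 in young letters A to D to 0.564, 0.586, 0.600 and 0.581 in old ones, with no overlap and a mean difference of 0.120 ± 0.0331. Of the 15 other classes, 7 were higher and 8 lower in old cells, with a median of -0.00150, and the rise was larger in 3 of them. MPP D had a difference of 0.0990 ± 0.0979 and MPP B 0.0500 ± 0.0700, which was not called. In MPP C the difference was -0.0654 ± 0.0184 and lay below 0 in all 4 letters. The difference between the MPP A and the MPP C age differences was 0.185 ± 0.0232, above 0 in 4 of 4 letters.

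CD62L rose by 0.0704, 0.0703, 0.0957 and 0.109 in letters A to D, a mean of 0.0864 ± 0.0193. Its share of ADT counts rose less evenly, at 1.23 ± 0.299 times the young share on average and 0.958 times in letter B. The MPP A rise exceeded the age difference of MPP B by 0.0734 ± 0.0405 and that of MPP D by 0.0868 ± 0.0707, in 4 of 4 letters each. Against MPP C, with a rise of 0.0833 ± 0.0630, the difference was 0.00305 ± 0.0474. CD11c, an integrin of dendritic cells, rose by 0.108 ± 0.0190, and it was higher in old cells in all 15 other classes, with a median of 0.106. Gr1 (0.0660 ± 0.0331), CD127 (0.0474 ± 0.0345) and CD9 (0.0460 ± 0.0175) rose as well, with 0.0312 for CD127 without letter C and 0.0806 for CD9 after thinning.

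Sca-1 had no common direction with age in MPP A. For letters A to D the old minus young difference was 0.0630, -0.0161, -0.155 and -0.137. CD27, CD44, CD150, CD105, CD41 and CD16/32 were not called either, with mean differences from -0.0430 (CD105) to 0.0459 (CD41). CD150 was at 0.105 in young and 0.104 in old cells. Sca-1 and CD86 differed from MPP B in the same direction at both ages, since Sca-1 was 0.261 higher in old and 0.292 higher in young units, and CD86 0.152 and 0.170 higher.

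**Figure D5:**
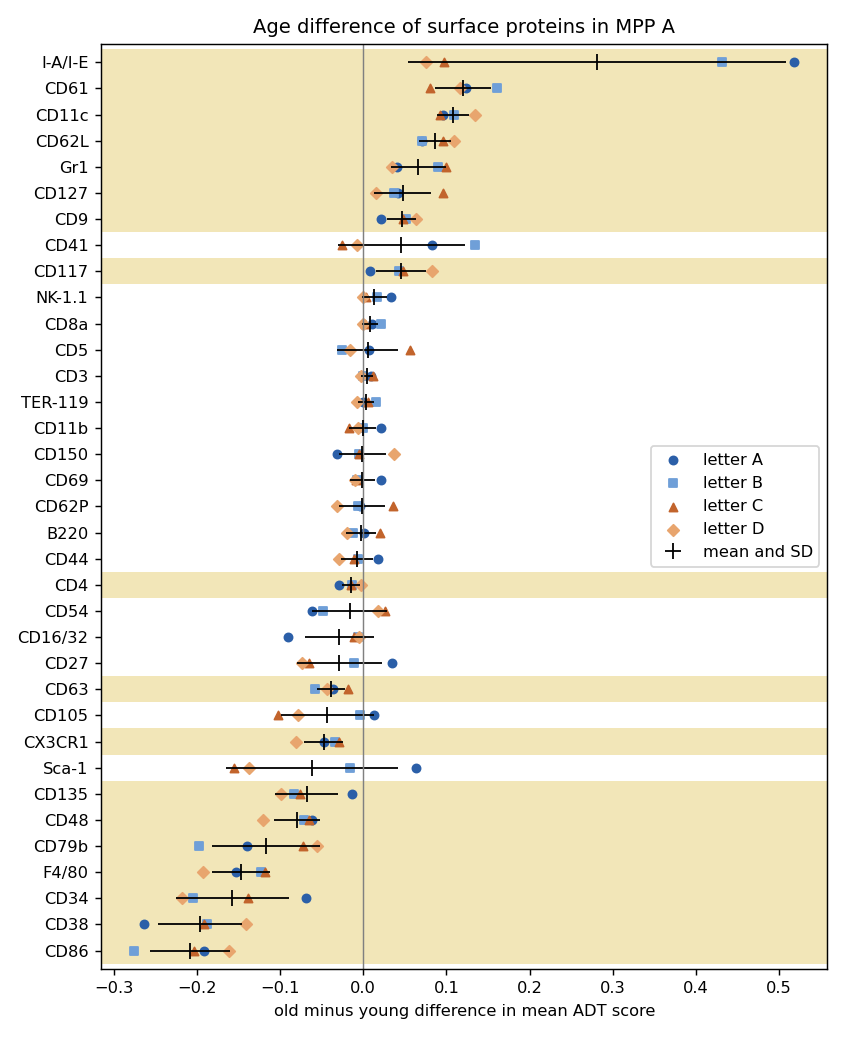
Old minus young difference in mean ADT score of MPP A (horizontal axis, no unit) for 35 proteins, with a symbol for each letter, a black bar for the mean with SD over 4 letters, and shading where the protein was called. CD86 and CD38 lie lowest, at -0.208 and -0.196, and I-A/I-E splits into letters A and B at 0.518 and 0.431 and letters C and D near 0.1.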

How the data were processed

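Reads were processed by the authors with Cell Ranger on mm10, per the labels. The deposited matrix holds ADT counts of 35 antibodies per cell, not normalized, and the deposited cell table holds scores, ages, RNA classes and Egfp calls for 22602 cells; 188 cells of the matrix have no annotation and stayed out. Cells with few genes, or lacking both the CD117 protein and Kit RNA, had been filtered out by the authors. The deposited score was rebuilt here from the counts and matched within 1e-06. The mitochondrial share is deposited by the authors as a percent of RNA counts and was at most 5.49% in MPP A.

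Cells were grouped by RNA class, letter and age, with at least 10 cells per class and unit. Differences of mean score were taken within units, and a protein was called when all units shared a sign and the mean exceeded the SD. Percentages were computed from the counts, and shares carry exact Clopper-Pearson 95% intervals. HSC were compared in old units only, and old against young HSC was not analysed here. Doublets were not called.

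Named were the 4 markers, 11 stage proteins and the 5 largest called differences of each comparison, the rest being described by list. I-A/I-E, B220, NK-1.1, CX3CR1 and other proteins outside this rule were named after their values were seen. Members and lists were chosen with earlier results of these data known. Alternatives were each letter left out, thinning to 300 counts, medians, at least 20 cells, centring on lineage antibodies, log2 of counts per 1000 plus 1, a score with 1 logarithm, a depth window from the 10th to the 90th percentile, other units, single ages and gates moved by 0.1. Restricting the age comparison to cell groups numbered 1 and 3 or to letters A and B or C and D was chosen after seeing the data. Scripts were tested on simulated data and run in Python 3.11.15 with numpy 2.4.6, pandas 2.3.3 and scipy 1.17.1.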

Additional observations from a re-analysis of the deposited data

Results flagged for a closer look

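Of 86 values checked for a unit that stands apart within its comparison by Dixon's 95% critical values, 7 were found, and this limit lets about 1 in 20 through by chance. The difference between MPP A and HSC stood apart in letter C for CD27, at 0.442, and in letter A for CD38, at -0.433. CD86 exceeded MPP C by 0.456 in old letter D, more than in any other unit. Against MPP D, young letter A stood apart for CD27, at -0.103, and for CD44, at -0.0873. Old minus young MPP A stood apart in letter D for CD48, at -0.120, and in letter A for CD16/32, at -0.0908.

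In 3 cases all letters of 1 class or age moved one way and all letters of the other the opposite way. Beyond the values by letter, these differences were not tested. CD61 rose with age by 0.120 in MPP A and fell in all letters in MPP C. CD135 fell with age in MPP A, with a mean difference of -0.0680, and was higher in old MPP C in all letters, at a level near 0 there (0.0703 in old and 0.0480 in young cells); at equal depth the MPP A difference was -0.00901. MPP A minus MPP C for CD61 was -0.0818 in young units and above 0 in all old units.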

How the results depend on the processing

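Leaving out each letter in turn gave 20 to 24 called proteins against HSC, 8 to 11 against MPP B, 18 to 22 against MPP C, 8 to 10 against MPP D and 17 to 24 for age. In young units alone 15 proteins were called against MPP B and 15 against MPP D, and thinning to 300 counts left 5 against MPP D; fewer units or counts enter these. Signs turned on log2 counts per 1000 for CD16/32 against HSC (-0.0915) and for CD117 (0.0353), CD27 (0.0646) and CD44 (0.0389) against MPP D, and in the depth window for Sca-1 in old minus young MPP B (0.00871); the cause was not tested. Of single-protein values under alternatives that kept the score, 131 of 144 against HSC, 208 of 216 against MPP B, 185 of 204 against MPP C, 187 of 204 against MPP D and 199 of 216 for age moved by less than the SD over units. On log2 counts or with 1 logarithm sizes are not comparable, and 30 of 32, 32 of 36, 33 of 34, 29 of 34 and 35 of 36 kept their sign. Moving the Sca-1 limit up or down by 0.1 gave 66.7% and 81.0% of MPP A in the window, and thinning gave 49.1%. Moving the CD48 limit gave 85.2% and 92.5% CD150-CD48+ and 12.4% and 5.10% CD150-CD48-, and thinning 82.5% and 15.8%. Among HSC and MPP classes alone MPP A made up 31.3%. A comparison with HSC in young units, or with cell groups as units, was not run, for too few cells. Depth was lowest in HSC and MPP C, which limits small differences against these classes.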

Other observations

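The 21 old MPP A cells called negative for Egfp (without Egfp) are set beside the 248 called positive (with Egfp). Values are means over cells, with no test. CD62L was 0.900 without and 1.14 with Egfp, I-A/I-E 0.883 and 1.03, Sca-1 0.850 and 0.964, and CD27 1.29 and 1.40. CD38 was 0.602 without and 0.484 with Egfp, CD34 0.598 and 0.495, and CD150 0.162 and 0.0977. The SD over cells was 0.376 and 0.372 for CD62L and 0.284 and 0.360 for Sca-1, so the cells of both kinds overlapped. Letters enter these means unequally. Taken within letters, the difference without minus with Egfp was below 0 in 4 of 4 for CD62L (-0.254 ± 0.134, SD over letters) and CD27 (-0.104 ± 0.0541) and above 0 in 4 of 4 for CD34 (0.0798 ± 0.0479) and CD150 (0.0627 ± 0.0355). I-A/I-E (-0.0975 ± 0.126), Sca-1 (-0.0978 ± 0.175) and CD38 (0.112 ± 0.145) had mixed signs.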
